A study of Mus musculus with 8 samples.

Results

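AP-1 is a family of transcription factors that bind DNA as dimers, and it was followed here through 10 genes: Fos, Fosb, Fosl1, Fosl2, Jun, Junb, Jund, Batf, Batf3 and Atf3. The members were taken as the probe sets that the array's annotation pairs with 1 of these symbols alone, which gave 14 probe sets. Where a gene had several, the brightest on average was used and the others served as a check. All 10 genes were among the 18193 genes on the array, and all 10 were among the 11178 that lay above a low-level filter in at least 2 arrays (3.13 on the log2 scale) and were tested.

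RNA was measured on 8 mouse Affymetrix arrays, a pair for each of 4 groups. Tfh cells were CD4 T cells with the follicle-homing receptor CXCR5. They were sorted from the spleen of C57BL/6 animals immunized 7 days before with the foreign protein KLH, and were then given anti-CD3 in culture for 4 h. Th1, Th2 and Th17 cells started as naive CD4 T cells of OT-II mice, which carry a T cell receptor transgene on the C57BL/6 background and were 6 to 8 weeks old. They were activated for 5 days with OT-II peptide and antigen-presenting cells (APC) under Th1, Th2 or Th17 conditions. Restimulation is labelled for the Tfh cells and not for the cultures, so cell type, source and the time since stimulation cannot be told apart between Tfh and the rest. The labels give no age for the Tfh mice, and nothing in them states that replicates were different animals or cultures. The p-values therefore reflect array-to-array spread alone, which may be technical.

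A basic region of each AP-1 protein grips DNA and a leucine zipper joins it to its partner. Fos proteins pair with Jun proteins, whereas Jun proteins can also pair with each other. In T cells, antigen receptor signals reach these genes through calcium and MAP kinases. The Fos and Jun genes are textbook immediate early genes, transcribed within minutes of a signal from factors already present, and many of their messages decay fast. Batf and Batf3 encode small proteins that pair with Jun proteins and, with the factor IRF4, bind composite sites. Batf is known to be needed for Th17 and Tfh cells in mice.

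Regulatory sequence upstream of 4 members is shown because Fosb and Batf3 are the members that stood apart in opposite directions below, and Fos and Jun gave the family its name. The stretches are the 250 bases before the RefSeq start site in build GRCm38.p6, written 5′ to 3′ on the strand of the gene. Capitals mark TGACG, the core of the cAMP response element, and in Jun the AP-1-like element TGACATCA. The windows lie at chr7:19310046-19310295 on the minus strand for Fosb, chr1:191098164-191098413 on the plus strand for Batf3, chr12:85473640-85473889 on the plus strand for Fos and chr4:95052223-95052472 on the minus strand for Jun.
Fosb: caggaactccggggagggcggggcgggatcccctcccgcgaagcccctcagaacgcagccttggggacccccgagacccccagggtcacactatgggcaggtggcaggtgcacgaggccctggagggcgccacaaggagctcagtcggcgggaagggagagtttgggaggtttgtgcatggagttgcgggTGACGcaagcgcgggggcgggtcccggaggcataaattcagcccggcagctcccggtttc
Batf3: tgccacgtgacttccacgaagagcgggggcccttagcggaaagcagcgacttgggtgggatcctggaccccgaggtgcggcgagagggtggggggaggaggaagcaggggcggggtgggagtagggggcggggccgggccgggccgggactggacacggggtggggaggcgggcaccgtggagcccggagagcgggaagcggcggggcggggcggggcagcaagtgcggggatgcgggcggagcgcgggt
Fos: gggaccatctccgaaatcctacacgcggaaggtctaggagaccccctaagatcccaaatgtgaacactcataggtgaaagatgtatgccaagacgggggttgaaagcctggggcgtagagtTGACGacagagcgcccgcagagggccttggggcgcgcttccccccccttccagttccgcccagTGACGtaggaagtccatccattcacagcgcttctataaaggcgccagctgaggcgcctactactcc
Jun: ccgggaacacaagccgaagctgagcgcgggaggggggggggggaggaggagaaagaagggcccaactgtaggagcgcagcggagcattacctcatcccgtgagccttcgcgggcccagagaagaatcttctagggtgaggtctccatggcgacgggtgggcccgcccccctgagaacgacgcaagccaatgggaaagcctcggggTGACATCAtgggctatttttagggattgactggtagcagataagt

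Windows were present for 9 of the 10 members, Fosl1 being the other. Searched on both strands, TGACG was found upstream of 5 of the 9, namely Fos, Fosb, Junb, Batf and Atf3, and in 17.8% of all 32851 promoter windows of this length. In Fos it lay at bases -129 to -125 and -66 to -62 from the start site, and in Fosb at -60 to -56. The element TGACATCA was found in Jun at -45 to -38 and in 2.93% of all windows. Batf3 held neither, but held the GC box GGGCGG 5 times, a motif found in 7 of the 9 members and 32.7% of all windows. The full element TGACGTCA, of which TGACG is a part, the AP-1 element TGACTCA and the CArG box, which serum response factor binds, were found in 0 of the 9 windows and in 1.55%, 4.46% and 1.47% of all windows. A match is a description of the letters and not evidence of binding. Bases outside these windows were not searched. A motif missing from a window, such as the CArG box in Fos, may therefore still lie elsewhere in that promoter.

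The Tfh arrays differ from the rest as a whole, and this touches every difference below. As deposited, the median log2 difference of all tested genes, Tfh minus the cultured mean, was 0.84, so the median gene was higher in Tfh. This median difference was -0.35 after the arrays were shifted to the same median and -0.17 after quantile normalization, lower in Tfh in both. The 2 Tfh arrays were nearly alike (11 tested genes differed by more than 1 log2 unit, against 696 to 1435 within the cultured groups), so the fit was also run with their mean as 1 sample. The T cell markers lay above the filter level in all 8 arrays (7 of 7 genes), and by group mean Cxcr5, Bcl6 and Pdcd1 were highest in Tfh, Ifng and Il12rb2 in Th1, Il4, Il5 and Il13 in Th2 and Il17a in Th17. Among the defining factors, Tbx21 of Th1 cells had a mean of 10.63 in Tfh and 10.16 in Th1, and Gata3 of Th2 cells 10.60 in Tfh and 10.79 in Th2. Neutrophil markers were above the filter level in both Tfh arrays (8 of 8 genes, summed level 16.09 and 16.14 on the log2 scale), in Th2 replicate 1 (6 of 8, 11.87) and Th17 replicate 1 (2 of 8, 7.46), and in 0 of 8 in the other 4 arrays (5.44 to 5.53). Macrophage and monocyte markers summed to 11.73 and 11.80 in Tfh, against 12.44 in Th2 replicate 1 and 5.97 to 10.66 in the other cultured arrays. B cell markers summed to 10.27 in each Tfh array, against 6.07 to 10.01 in the cultured arrays. The part these cells had in the values below was not tested, and in such mixed RNA fewer cells of a type and less RNA per cell cannot be told apart.

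**Figure D1:**
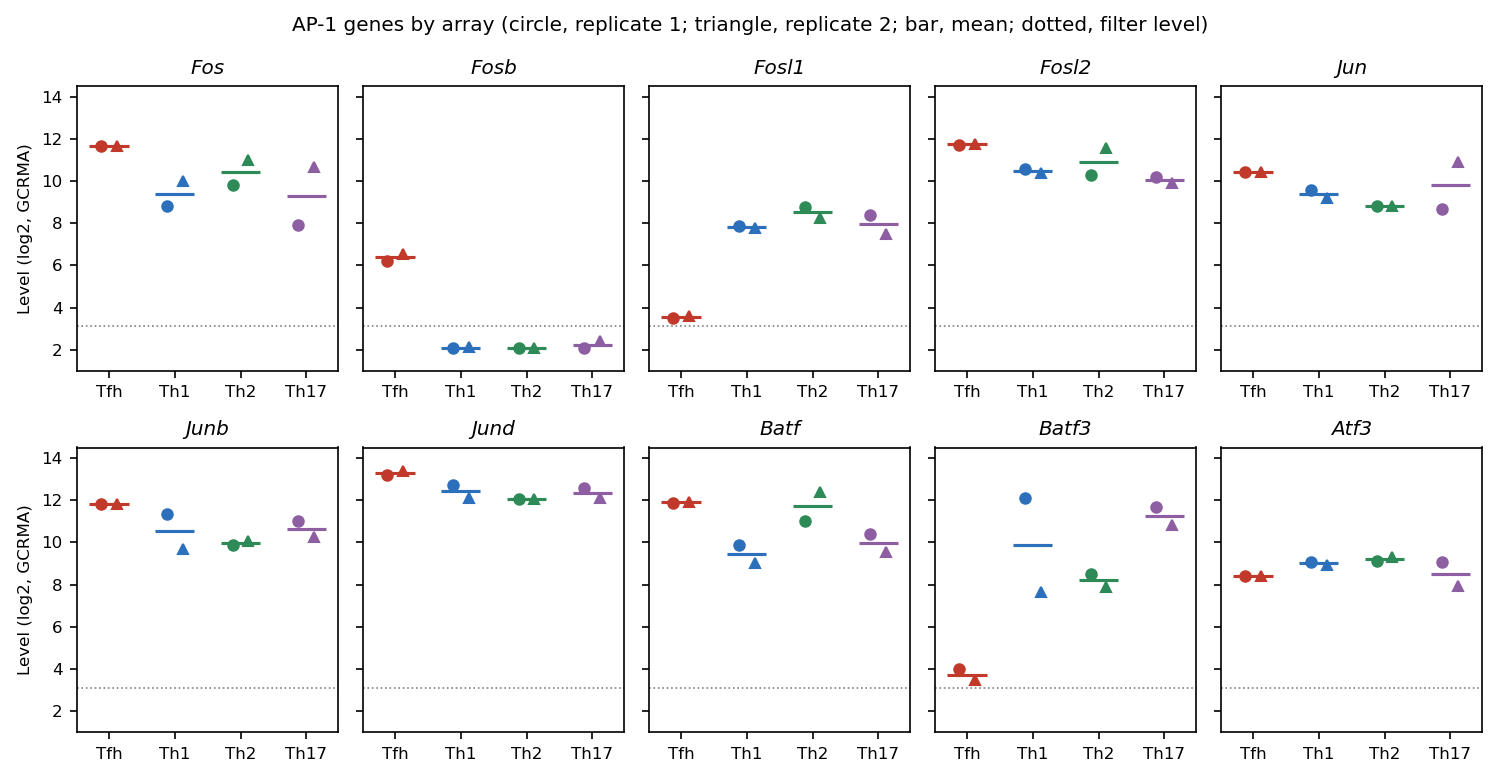
Level of each AP-1 gene (log2, GCRMA; vertical axis) in the 2 arrays of Tfh, Th1, Th2 and Th17 cells, with the group mean as a bar and the filter level as a dotted line. Fosb is above the filter level in Tfh arrays alone. Fosl1 and Batf3 are lower in both Tfh arrays than in all 6 cultured arrays, as are 13.8% of all tested genes.

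Of the 10 AP-1 genes, Tfh arrays had 5 called higher and 2 called lower against the mean of the cultured types, and 3 were neither. A gene was called when the adjusted p of limma was under 0.05 over all tested genes and the log2 difference was at least 1 in size. The background was high: 43.7% of all tested genes were called higher in this comparison and 6.66% lower. The median log2 difference of the members was 1.17, against 0.84 over all tested genes. In all 3 scalings (as deposited, shifted to 1 median, quantile normalized) 1 member was called higher, Fosb, and 2 were called lower, Fosl1 and Batf3; of all tested genes 12.7% were called higher and 6.63% lower in all 3. Of all tested genes 14.8% were called higher with medians aligned and 15.7% with quantiles aligned, where Fosb was the higher member in each. Fosb was below the filter level in every cultured array, so it could be tested only by being high in Tfh. Since the rescaled arrays shift Tfh downward, lower calls are hardly tested by this.

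Among the Fos family, Fosb set the Tfh arrays apart. Fosb encodes a dimer partner of Jun proteins and is known as an immediate early gene of nerve and immune cells. Its level was 6.22 and 6.56 in Tfh, against 2.10 and 2.11 in Th1, 2.10 and 2.09 in Th2 and 2.10 and 2.40 in Th17. Both Tfh arrays lay above all 6 others, as for 60.5% of all tested genes. All 6 cultured arrays lay below the filter level of 3.13. Fosb therefore passed the filter through the 2 Tfh arrays alone and had to differ, so its calls are a description. The fitted differences were 4.29, 4.30 and 4.14 on the log2 scale against Th1, Th2 and Th17. Since the cultured values sit at the bottom of the scale, these have no exact size, and the Tfh mean exceeded the filter level itself by 3.26. Among Th1, Th2 and Th17 the Fosb differences lay between -0.15 and 0.01 and were not called.

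Fosl1 went the other way. It encodes FRA-1, a Fos protein that lacks a strong transactivation domain and is usually made later after stimulation than Fos. The level of Fosl1 was 3.49 and 3.61 in Tfh, against 7.88 and 7.78 in Th1, 8.78 and 8.25 in Th2 and 8.41 and 7.47 in Th17. Both Tfh arrays lay below all 6 others, as they did for 13.8% of all tested genes, and the Tfh values lay just above the filter level. Fosl1 was lower in Tfh by -4.28, -4.97 and -4.39 log2 units against Th1, Th2 and Th17 (SE 0.36; limma adjusted p = 0.000257, 0.000151 and 0.000255). A second probe set gave smaller differences of -2.10, -3.53 and -2.98, all called, with Tfh values of 2.73 and 2.62 that lay below the filter level. The calls for Fosl1 held without each of the 8 arrays in turn and with the Tfh arrays averaged.

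Fos itself lay above the filter level in every array and was not called with all 8 arrays in the design used here. Its level was 11.68 and 11.67 in Tfh, against 8.82 and 9.99 in Th1, 9.83 and 10.99 in Th2 and 7.92 and 10.68 in Th17. Both Tfh arrays lay above all 6 others, as they did for 60.5% of all tested genes. The difference from the mean of the cultured types was 1.97 log2 units (SE 0.78, 95% interval 0.05 to 3.88, limma adjusted p = 0.0626). Without Th17 replicate 1 Fos was called higher in Tfh (1.51, adjusted p = 0.0358), and likewise without Th17 replicate 2 (2.43, adjusted p = 0.0074). Against Th1, Th2 and Th17 alone the differences were 2.27, 1.26 and 2.37 (SE 0.95). That against Th1 was called without either Th17 array (adjusted p = 0.0177), and that against Th17 without Th17 replicate 2 (3.75, adjusted p = 0.00816) but not without Th17 replicate 1 (0.99).

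Fosl2 encodes FRA-2, the other late Fos protein. The level of Fosl2 was 11.71 and 11.77 in Tfh, against 10.56 and 10.37 in Th1, 10.26 and 11.56 in Th2 and 10.19 and 9.92 in Th17. Th2 replicate 2 came close to the Tfh arrays and no cultured array passed them, as for 60.5% of all tested genes. Fosl2 was called higher in Tfh than in Th1 (1.27, SE 0.41, limma adjusted p = 0.0342) and Th17 (1.69, adjusted p = 0.0127) but not Th2 (0.83, adjusted p = 0.12), where it was called without Th2 replicate 2 (1.48, adjusted p = 0.00332) and was 0.18 without Th2 replicate 1. Against the mean of the cultured types the difference was 1.27 (SE 0.33, adjusted p = 0.0154), a call that ended without either Tfh array (0.0796 and 0.09). Relative to the median gene these differences shrank to 0.43, 0.87 and -0.01, and no Fosl2 call held after the median shift or quantile normalization. Each of the calls against Th1 and Th17 also ended without either Tfh array (adjusted p = 0.0585 to 0.126). That against Th1 ended without either Th1 or either Th17 array as well (0.053 to 0.119), and that against Th17 without Th17 replicate 2 (0.059). A second probe set, at 7.72 and 8.10 in Tfh, against 6.18 and 3.94 in Th1, 4.52 and 5.00 in Th2 and 4.53 and 3.60 in Th17, gave larger differences of 2.85, 3.15 and 3.84, all called.

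**Figure D2:**
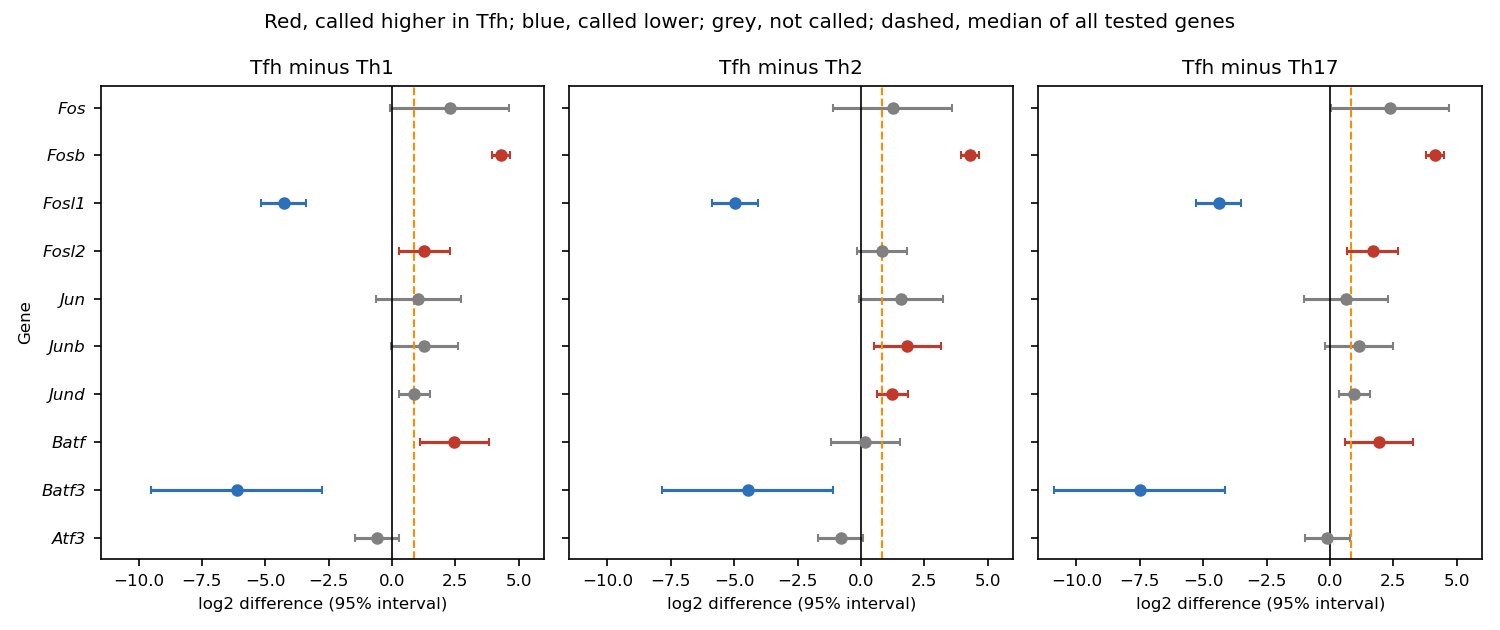
Log2 difference of each AP-1 gene between Tfh and Th1, Th2 or Th17 cells (horizontal axis; points with 95% intervals of the limma fit), coloured by call, with the median of all tested genes as a dashed line. Fosb lies at 4.14 to 4.30, Fosl1 at -4.97 to -4.28 and Batf3 at -7.50 to -4.47, while the Jun genes lie within 1 log2 unit of the dashed line.

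The Jun family stayed near the median gene. Jun, the partner that gives Fos proteins a DNA-binding dimer, had a level of 10.42 and 10.41 in Tfh, against 9.56 and 9.19 in Th1, 8.83 and 8.83 in Th2 and 8.67 and 10.91 in Th17. Th17 replicate 2 lay above both Tfh arrays and Th17 replicate 1 was the lowest of all 8. The difference from the mean of the cultured types was 1.08 log2 units (SE 0.55, 95% interval -0.28 to 2.44) and was not called. It turned to -0.11 after the median shift, and without Th17 replicate 2 Jun was called higher in Tfh (1.46, limma adjusted p = 0.000684), while without Th17 replicate 1 the difference was 0.71. Without either Th17 array Jun was also called higher against Th1 (1.04, adjusted p = 0.0038 and 0.00406) and Th2 (1.59, adjusted p = 0.000986 and 0.00105), and against Th17 alone the difference was 1.74 without replicate 2 and -0.49 without replicate 1. On a second probe set Th17 replicate 2 (8.65) was again above Tfh (7.70 and 7.81), but the lowest array was Th1 replicate 2 (6.22) and Th17 replicate 1 (6.75) lay above all Th1 and Th2 arrays.

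Junb restrains some Jun targets and pairs with Batf in T cells. Its level was 11.80 in each Tfh array, against 11.34 and 9.71 in Th1, 9.88 and 10.06 in Th2 and 11.03 and 10.27 in Th17. Both Tfh arrays were above all others, as for 60.5% of all tested genes, with Th1 replicate 1 nearest. Junb was called higher in Tfh than in Th2 (1.83, SE 0.54, limma adjusted p = 0.026), the call ending without either Tfh or either Th2 array (adjusted p = 0.0781 to 0.1). Against the mean of the cultured types it was higher by 1.42 (adjusted p = 0.0286). This call ended without either Tfh array (0.126 each), without Th2 replicate 1 (0.0601) or 2 (0.0531) and without Th17 replicate 2 (0.0556). After the median shift the call against Th2 was lost (0.62, limma adjusted p = 0.34), as it was after quantile normalization (1.08, 0.122). That against the mean was lost in both as well (0.23 and 0.70). Against Th1 and Th17 the differences as deposited were 1.28 and 1.15 and were not called. Without Th1 replicate 1 both were called (2.09, adjusted p = 0.00536, and 1.15, adjusted p = 0.0161), and without Th1 replicate 2 the one against Th17 was (adjusted p = 0.0159) while that against Th1 was 0.46; that against Th17 turned to -0.012 after the median shift.

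Jund, the most evenly expressed Jun gene in textbook accounts, had a level of 13.21 and 13.38 in Tfh, against 12.73 and 12.12 in Th1, 12.08 and 12.04 in Th2 and 12.57 and 12.09 in Th17. The Tfh arrays were again the highest pair, as for 60.5% of all tested genes. Jund was higher by 1.02 against the mean of the cultured types (SE 0.20, limma adjusted p = 0.00494) and by 1.23 against Th2 (adjusted p = 0.00606). It missed the size threshold against Th1 (0.87) and Th17 (0.96), passing it without Th1 replicate 1 (1.18) and Th17 replicate 1 (1.20), but at 0.57 and 0.72 without the other array of each pair. Relative to the median gene the 3 differences against Th1, Th2 and Th17 were 0.02, 0.39 and 0.14, and the median shift turned those against Th1 and Th17 to -0.34 and -0.20. The call against the mean ended without Tfh replicate 2, Th1 replicate 2 or Th17 replicate 2, where the difference fell to 0.92 to 0.94. A further Jund probe set lay below the filter level in all 8 arrays (2.29 to 2.56).

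**Figure D3:**
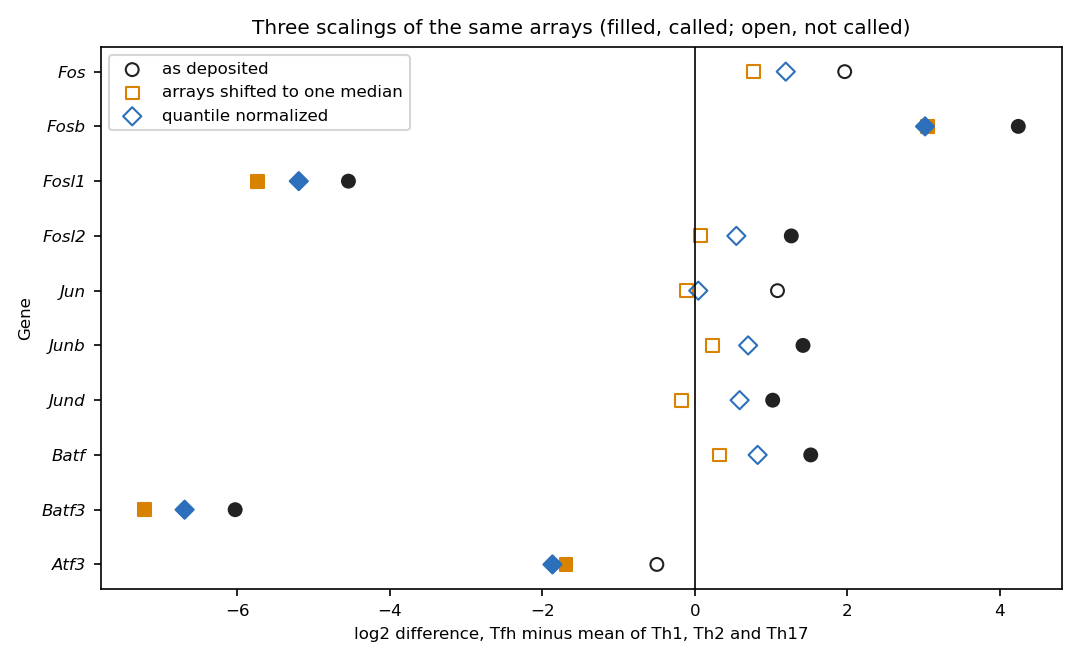
Log2 difference of each AP-1 gene between Tfh and the mean of Th1, Th2 and Th17 (horizontal axis) as deposited, after shifting the arrays to the same median, and after quantile normalization, with filled marks for called differences. Fosb, Fosl1 and Batf3 are filled in all 3, whereas Fosl2, Junb, Jund and Batf are filled as deposited and open after rescaling, and Atf3 is filled after rescaling alone.

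Batf was high in Tfh and in Th2. Its level was 11.89 and 11.90 in Tfh, against 9.89 and 9.01 in Th1, 11.04 and 12.41 in Th2 and 10.39 and 9.53 in Th17. Th2 replicate 2 was the highest of all 8 arrays and the other cultured arrays lay below Tfh. Batf was called higher in Tfh than in Th1 (2.45, SE 0.55, limma adjusted p = 0.00965) and Th17 (1.94, adjusted p = 0.0233), or 1.60 and 1.11 relative to the median gene. Against Th2 it differed by 0.17 (95% interval -1.18 to 1.53, adjusted p = 0.794), and this turned to -1.04 and -0.46 in the other scalings and to -0.51 without Th2 replicate 1. The call against Th1 was kept after quantile normalization (1.71, adjusted p = 0.0372) and lost after the median shift (0.0965). That against Th17 was lost after quantile normalization (adjusted p = 0.102) and after the median shift (0.268). Against the mean of the cultured types Batf was higher by 1.52 (SE 0.45, adjusted p = 0.0238), which ended without either Tfh array (0.111 and 0.113). Leaving out either Tfh array ended both single-type calls (adjusted p = 0.0504 to 0.0922), and that against Th17 also ended without Th17 replicate 2 (0.108). In order of mean level the groups ran Tfh (11.90), Th2 (11.72), Th17 (9.96) and Th1 (9.45), and no neighbours in that order differed by a call.

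Batf3 was the member with the widest range. It encodes a close relative of Batf, known above all for its role in the cross-presenting dendritic cells of mice. Its level was 4.02 and 3.47 in Tfh, against 12.10 and 7.63 in Th1, 8.51 and 7.91 in Th2 and 11.66 and 10.82 in Th17. Every cultured array stood above both Tfh arrays, as for 13.8% of all tested genes, Th1 replicate 2 being the nearest. The Tfh mean lay 0.61 above the filter level, near the bottom of the scale, so the differences that follow have no exact size. Batf3 was lower in Tfh by -6.13, -4.47 and -7.50 log2 units against Th1, Th2 and Th17 (SE 1.36; limma adjusted p = 0.00944, 0.0295 and 0.00448). Against Th2 the call was lost when either Tfh or either Th2 array was left out (adjusted p = 0.0805 to 0.121) and with the Tfh arrays averaged (0.105), and that against Th1 ended without Tfh replicate 2 (0.0543). The difference from Th1 was -3.89 without Th1 replicate 1 and -8.36 without Th1 replicate 2. The call against the mean of the cultured types (-6.03, SE 1.11, adjusted p = 0.00384) held without each array in turn, between -6.78 and -5.29. In order of mean level the groups ran Th17 (11.24), Th1 (9.87), Th2 (8.21) and Tfh (3.74), and of these neighbours Tfh and Th2 differed by a call.

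Dendritic cell markers were set beside Batf3, and their part in its values was not tested. Xcr1 and Siglech, which mark cross-presenting and plasmacytoid dendritic cells, lay below the filter level in all 8 arrays (1.93 to 2.06). Itgax was at 2.49 and 2.48 in Tfh, against 2.38 and 2.63 in Th1, 6.80 and 5.92 in Th2 and 4.49 and 3.73 in Th17. Zbtb46 was at 5.35 and 5.33 in Tfh, against 3.98 to 4.45 in the cultured arrays, and Flt3 was above the filter level in Th17 replicate 1 alone (6.91). The 5 dendritic cell markers on the array summed to 5.90 and 5.88 in Tfh, against 5.10 and 5.17 in Th1, 7.16 and 6.50 in Th2 and 7.43 and 5.39 in Th17.

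Atf3, a stress-induced factor that pairs with Jun proteins and dampens inflammatory genes, was not called as deposited. Its level was 8.43 and 8.40 in Tfh, against 9.08 and 8.94 in Th1, 9.13 and 9.32 in Th2 and 9.07 and 7.96 in Th17. The Tfh arrays lay below those of Th1 and Th2 and between those of Th17. Atf3 differed by -0.50 from the mean of the cultured types (95% interval -1.22 to 0.22) and by -1.34 relative to the median gene. It was called lower after the median shift (-1.69, limma adjusted p = 0.00273, when 28.9% of all tested genes were called lower) and after quantile normalization (-1.87, adjusted p = 0.00245, with 22.0% called lower).

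By single types, 3 members were called higher and 2 lower in Tfh against each of Th1, Th2 and Th17. Against Th1 these were Fosb, Fosl2 and Batf, where 42.8% of all tested genes were called higher and 6.16% lower. Against Th2 they were Fosb, Junb and Jund, with 42.8% of all tested genes higher and 6.89% lower. Against Th17 they were Fosb, Fosl2 and Batf, with 41.8% higher and 6.17% lower. Fosl1 and Batf3 were the lower members each time. In all 3 scalings Fosb was the higher member against Th1, Th2 and Th17, beside 12.4%, 13.0% and 11.6% of all tested genes, and Fosl1 and Batf3 the lower ones, beside 6.11%, 6.86% and 6.13%. After the median shift alone, 14.4%, 15.0% and 13.5% of all tested genes were called higher against Th1, Th2 and Th17, and after quantile normalization 15.6%, 16.1% and 14.0%. The 3 comparisons share the Tfh arrays. Fosb passed the filter through those arrays alone, so its calls here are a description.

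Between the cultured types limma called 0 members in any pair. Of all tested genes 1.24% were called in Th1 against Th2, 0.143% in Th1 against Th17 and 0.671% in Th2 against Th17. At an unadjusted p under 0.05 there was 1 member in Th1 against Th2 and 1 in Th2 against Th17, each time Batf. There were 0 in Th1 against Th17. The share of all tested genes at this cut is not given, so these counts are a description alone. Batf was lower in Th1 than in Th2 by -2.27 log2 units (95% interval -3.63 to -0.92, adjusted p = 0.135) and higher in Th2 than in Th17 by 1.76 (0.41 to 3.12, adjusted p = 0.251). For Batf3 the differences were 1.66 for Th1 minus Th2 (-1.71 to 5.03), -1.37 for Th1 minus Th17 (-4.74 to 2.00) and -3.03 for Th2 minus Th17 (-6.40 to 0.34), intervals too wide to settle a direction. Without Th1 replicate 2 Batf3 was called higher in Th1 than in Th2 (3.89, adjusted p = 0.038), and without Th1 replicate 1 the difference was -0.58. Without Th17 replicate 1 Jun was called lower in Th2 than in Th17 (-2.08, adjusted p = 0.0239).

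Some of these genes differed widely between the 2 arrays of a cultured group, and others did not. The Th1 arrays differed by -4.47 log2 units in Batf3 (replicate 2 minus replicate 1), a gap as large as or larger than 99.7% of tested genes between those arrays. The Th17 arrays differed by 2.76 in Fos and 2.24 in Jun, gaps at 98.7% and 97.7% of tested genes, and by -1.11 in Atf3. The Th2 arrays differed by 1.37 in Batf, 1.30 in Fosl2 and 1.16 in Fos, where the median tested gene differed by 0.19. Fos was higher in replicate 2 of each cultured group (by 1.16 in Th1), and Fosl1, Jund and Batf3 were lower in it. The other members had gaps of mixed sign over the cultured groups. In Tfh the largest gap was -0.55, in Batf3, while Fos differed by -0.01.

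Some members are neighbours in the genome, and whether such neighbours share a pattern was not tested. In the GRCm38.p6 annotation Fos and Batf lie on chromosome 12 with 1 protein-coding gene between their starts, Jdp2, which encodes another AP-1 protein that represses Jun targets. Jdp2 had a level of 8.69 and 8.97 in Tfh, against 4.15 and 6.02 in Th1, 7.92 and 8.39 in Th2 and 6.07 and 2.96 in Th17. Like Batf it was high in Tfh and Th2 and was called higher in Tfh than in Th1 (3.74, limma adjusted p = 0.0253) and Th17 (4.31, adjusted p = 0.0155) but not Th2 (0.67, adjusted p = 0.611). By group mean Fos was also highest in Tfh (11.67) and next in Th2 (10.41). Batf3 and Atf3 lie on chromosome 1 with 1 protein-coding gene, Fam71a, between their starts. They differed from the mean of the cultured types by -6.03 and -0.50 as deposited.

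**Figure D4:**
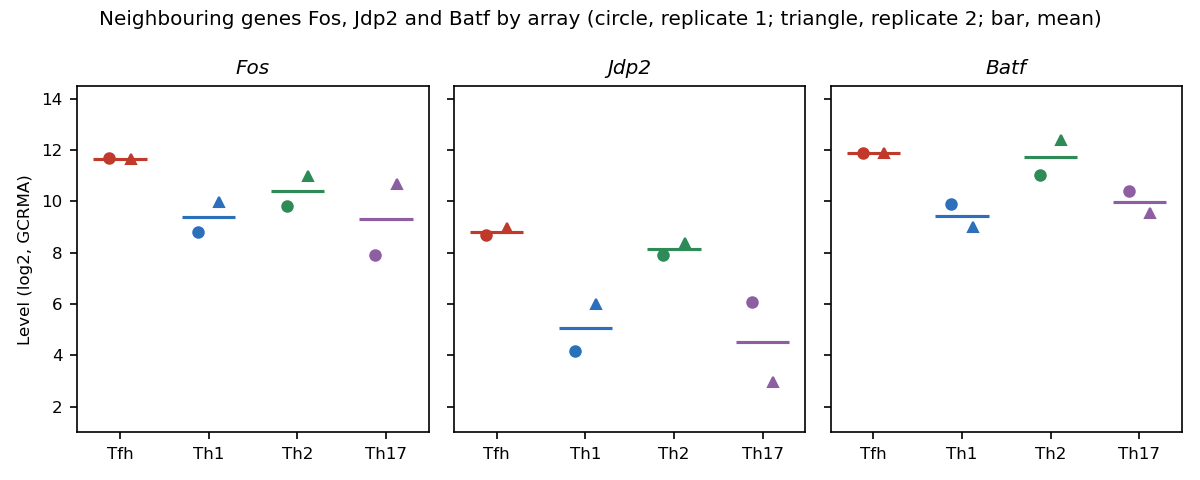
Level of the neighbouring genes Fos, Jdp2 and Batf (log2, GCRMA; vertical axis) in the 2 arrays of Tfh, Th1, Th2 and Th17 cells, with bars for group means. Jdp2 and Batf are high in Tfh and Th2 (means 8.83 and 8.16 for Jdp2, 11.90 and 11.72 for Batf), and Fos is highest in Tfh (11.67) with spread in the cultures.

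For each member the 3 other tested genes with the highest Pearson correlation over the 8 arrays were found, as a description without p. For Fosb these were Bbs2, B230217O12Rik and Gna12 (r = 0.9998 to 0.9993), for Fosl1 Mfsd12, Spink2 and Capsl (0.996 to 0.995) and for Batf3 Bcas1, Nme4 and Nlgn2 (0.987 to 0.986). For Fos they were Inpp4b, Abhd2 and Smim15 (0.981 to 0.979), for Fosl2 Dbp, Ahcyl2 and Trpc7 (0.990 to 0.977) and for Batf Dmac2l, Acot11 and Rwdd2a (0.979 to 0.952). For Jun they were Tgfa, Tasp1 and Tlr6 (0.955 to 0.950), for Junb Psd4, Cdc37 and Ahnak (0.993 to 0.988), for Jund Atm, Kantr and Zbtb7b (0.991 to 0.988) and for Atf3 Perp, Trim62 and Gspt1 (0.974 to 0.920). The points are not independent, since the arrays of a group share their source.

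Other genes of the pathway were counted from fixed lists in Tfh against the mean of the cultured types, to be read beside the 43.7% of all tested genes called higher and the 6.66% called lower. Counts in all 3 scalings are to be read beside 12.7% higher and 6.63% lower. The share of all tested genes at an unadjusted p under 0.05 is not given, so counts at that cut are a description alone. Of 18 tested kinases and factors upstream of AP-1, 12 were called higher, 1 lower and 5 neither, with 3 higher and 1 lower in all 3 scalings. Map3k1, a kinase that feeds the JNK branch, was higher by 2.94 (SE 0.27), Map2k3, which activates p38, by 1.65 (SE 0.17) and serum response factor (Srf), which drives the Fos promoter, by 1.34 (SE 0.18). Map3k7 (TAK1) differed by 0.78 and was not called. Map2k6, a further activator of p38, was lower by -1.76 (SE 0.32). Of 8 tested MAP kinase phosphatases, which switch these kinases off, 2 were higher, Dusp1 by 3.14 (SE 0.23) and Dusp10 by 3.78 (SE 0.44), both in all 3 scalings. The other 6 were not called, and 0 were lower in limma, also without adjustment at p under 0.05. Dusp2 differed by 0.82 and Dusp16 by 0.03.

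Of 13 tested relatives with the same basic-zipper fold, 8 were higher and 0 were lower in limma (0 lower at an unadjusted p under 0.05), and 0 of the higher calls held in all 3 scalings. Counts at the unadjusted cut in this paragraph likewise have no share of all tested genes beside them and are a description alone. Among the higher were Creb1, the cAMP response factor (2.17, SE 0.17), Atf2 (1.31, SE 0.14), Mafg (1.91, SE 0.20) and Maf, a regulator of IL-4 and IL-21 (1.87, SE 0.68). Of 7 partners that share composite sites with AP-1, 6 were higher and 0 lower in limma (0 at an unadjusted p under 0.05), 2 of them in all 3 scalings. The NFAT genes Nfatc3 and Nfatc1, whose products bind beside AP-1 in cytokine promoters, were higher by 2.89 (SE 0.11) and 2.63 (SE 0.34), Runx1 by 1.65 (SE 0.23) and Irf8 by 1.30 (SE 0.34). Runx1 was also the list's call between cultured types, lower in Th1 than in Th2 by -2.66 (SE 0.28, adjusted p = 0.017).

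Of 17 tested genes known as AP-1 targets, 2 were called higher in Tfh, 5 lower and 10 neither, with 0 higher and 5 lower in all 3 scalings, and their median was -1.41, against 0.84 over all tested genes. The cytokine genes Il5, Csf2 and Il3 were lower by -3.64 (SE 0.32), -3.49 (SE 0.32) and -7.20 (SE 0.85). Il5 was at 2.21 and 2.19 in Tfh, against 2.76 and 4.02 in Th1, 11.51 and 11.28 in Th2 and 2.76 and 2.72 in Th17, so its Th2 arrays carried that difference. The 2 higher genes were the activation marker Cd69 and the protease gene Mmp9, which were outside the rule for named genes and are named after their values were seen. Il17a differed by -0.08 and was lower in Th2 than in Th17 (-4.51, adjusted p = 0.0433).

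Of 19 tested genes listed as immediate early outside the AP-1 family, 13 were called higher in Tfh, 1 lower and 5 neither. In all 3 scalings 3 were higher and 1 lower. The median of the listed genes was 1.71, against 1.17 for the AP-1 members. Klf2 and Zfp36 led by adjusted p (6.08 and 3.63). Whether Klf2 or the other listed genes rise on stimulation in these cells was not tested. Ier2 was at 11.98 and 11.90 in Tfh, against 9.89 to 10.82 in the cultured arrays (1.45, SE 0.14), and the orphan receptor gene Nr4a2 at 12.62 in each Tfh array, against 9.25 to 12.70 (1.95, SE 0.44). Myc was at 11.25 and 11.18, against 11.01 to 12.25, and was not called (-0.43).

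**Figure D5:**
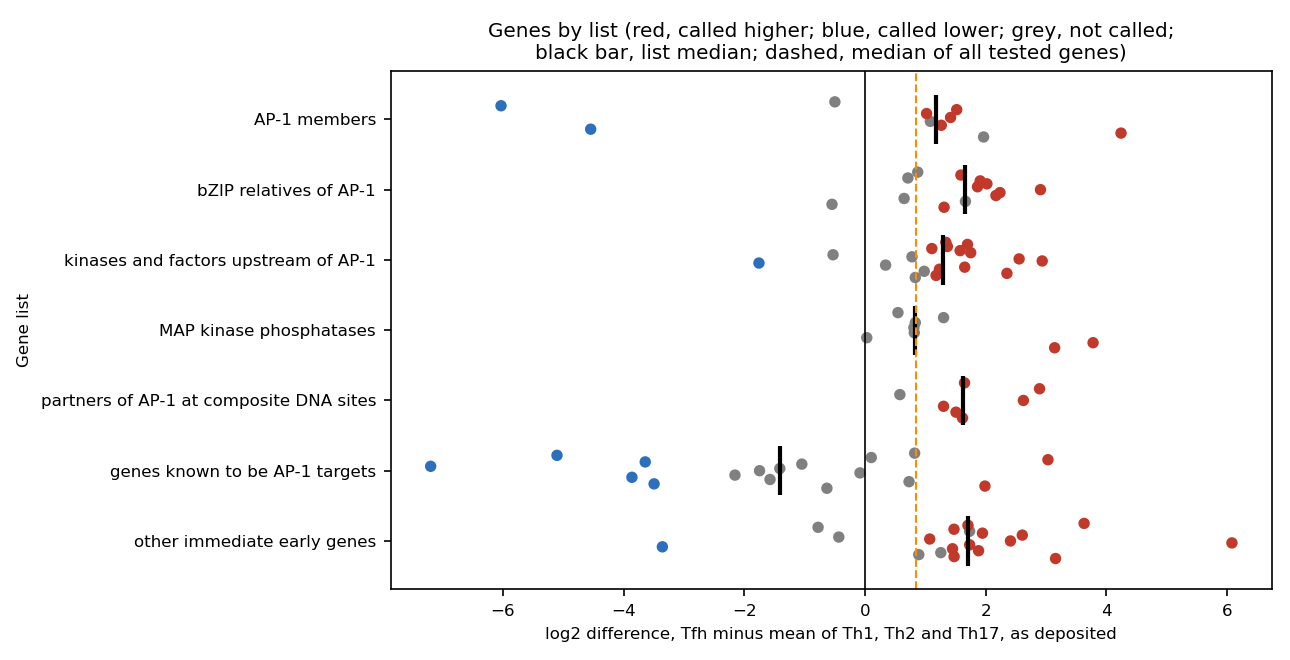
Log2 difference between Tfh and the mean of Th1, Th2 and Th17 as deposited (horizontal axis) for the genes of each list, coloured by call, with list medians as black bars and the median of all tested genes as a dashed line at 0.84. The known AP-1 targets have the lowest median (-1.41) and the other immediate early genes the highest (1.71).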

How the data were processed

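The arrays were deposited as 1 table of log2 values that the authors had normalized with GCRMA, per the submitters' processing notes and the labels. The version and the arrays normalized together are not given in the sources used here. Of 45101 probe sets, 34945 had 1 gene symbol, 932 several and 9160 none in the platform annotation, and 64 were controls; the first gave 18193 genes, each taken at its probe set with the highest mean. A gene was tested if at least 2 arrays exceeded the median of the whole table (3.13). limma 3.58.1 in R 4.3.3 was fitted to all 8 arrays with a coefficient per group and a mean-variance trend, with Benjamini-Hochberg adjustment over 11178 genes, and was tested on simulated data. With 4 residual degrees of freedom, the number of arrays limits the precision. All members are named, and per list the 3 genes of smallest adjusted p in Tfh against the mean and the 2 of smallest adjusted p between cultured types. Members and lists were chosen with earlier results of these data known. Promoter windows came from RefSeq (GRCm38.p6). Alternatives changed the scaling, filter, probe set, variance model, threshold, arrays and block.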

Additional observations from a re-analysis of the deposited data

How the results depend on the processing

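With 2 arrays a group, 176 of the results that count members kept their value within 1.5 times and 28 moved; for single members 1032 kept their direction and side of the threshold, 64 lost a call, 36 gained one and 32 turned direction. The cause was not tested. Outside the 3 scalings, the share of all tested genes called is not set beside these counts. A moved count is therefore no result about the members. Of the 5 members called higher in Tfh against the mean of the cultured types, 1 was called after the median shift, 1 after quantile normalization, 1 at a log2 threshold of 2 and 2 with the Tfh arrays averaged (1 to 6 without single arrays). Of 3 higher against Th1, 1 was called after the median shift, 1 with Tfh averaged and 5 with the arrays of those groups alone (1 to 4 without single arrays), and of 2 lower 1 to 2 without single arrays. Of 3 higher against Th2, 1 was called after the median shift, after quantile normalization and at a threshold of 2 (2 to 4 without single arrays), and of 2 lower 1 with Tfh averaged and 1 to 2 without single arrays. Of 3 higher against Th17, 1 was called in each of these 3 settings and with Tfh averaged (1 to 4 without single arrays). For Th1 against Th2 and for Th2 against Th17 the count was 0 to 1 without single arrays. The median shift turned the direction of Jun (-0.11) and Jund (-0.17) against the mean, Jun (-0.17) and Jund (-0.34) against Th1, Fosl2 (-0.38) and Batf (-1.04) against Th2, and Jun (-0.54), Junb (-0.012) and Jund (-0.20) against Th17. Quantile normalization turned Batf against Th2 (-0.46) and Jun against Th17 (-0.39), and other probe sets turned Fosl2 (0.30) and Jun (-0.070) in Th1 minus Th2. Without single arrays, differences of Tfh ranged over -0.51 to 0.86 for Batf minus Th2, -0.49 to 1.74 for Jun minus Th17 and -0.65 to 0.46 for Atf3 minus Th17. Th1 minus Th2 ranged over -1.10 to 0.21 for Fosl2, -0.26 to 1.37 for Junb and -0.58 to 3.89 for Batf3. Th1 minus Th17 ranged over -1.28 to 1.49 for Fos, -0.29 to 0.0068 for Fosb, -0.58 to 0.35 for Fosl1, -1.53 to 0.70 for Jun, -0.95 to 0.69 for Junb, -0.21 to 0.39 for Jund, -3.60 to 0.86 for Batf3 and -0.061 to 1.05 for Atf3. Th2 minus Th17 ranged over -0.27 to 2.49 for Fos and -2.08 to 0.16 for Jun. Fosb had no value where genes had to pass the filter level in all 8 arrays. It passed the main filter through the Tfh arrays alone, so its calls within these counts are a description. Where a group kept 1 array, that array was assumed to vary like the other groups.

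The labels number the replicates 1 and 2 in each group. Same-numbered arrays deviated together in Th1 and Th17 (r = 0.255) and Th2 and Th17 (0.268) and hardly in the other pairs of groups (-0.0018 to 0.0424, over 11178 genes), so the numbers were not taken as a pairing. With the replicate block, 6 members were higher and 2 lower in Tfh against the mean of the cultured types, 4 and 2 against Th1, 3 and 2 against Th2, 4 and 2 against Th17, and 0 were called between cultured types; Fos was then called against the mean (1.97, adjusted p = 0.021), Th1 (2.27, 0.0282) and Th17 (2.37, 0.0248). With the arrays of those groups alone, Fos was called against Th1 (0.0182). The share of all tested genes called in these settings is not given, so the member counts here have no background to be read against.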
